A study of Mus musculus with 6 samples.

Results

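The genes described here are 9 mouse genes of innate RNA sensing and interferon induction, chosen by symbol among the 55774 entries of an expression table of blastocysts. They are the sensors *Ddx58* and *Ifih1*, the adaptor *Mavs*, the transcription factor *Irf3*, the kinase *Eif2ak2*, the ubiquitin-like modifier *Isg15*, and the membrane proteins *Ifitm1*, *Ifitm2* and *Ifitm3*. All 9 symbols matched 1 entry each, and 6 of the 9 had enough signal to be tested. RNA was sequenced from 6 libraries, each made from 10 pooled wild-type blastocysts. They had grown from 2-cell embryos of ICR mice in CZB medium supplemented with extracellular vesicles of human Fallopian tubes. In the 3 oEV-EMT libraries the vesicles came from women with endometriosis, and in the 3 oEV-ctrl libraries from women with another gynaecological condition, which the sample labels give as uterine fibroids and the methods give otherwise. Both groups received human vesicles, so a response common to both sources cannot be seen in the comparison, which asks whether these genes differ with the source of the vesicles. No label ties a library to a donor or a culture, so the tests measure the spread between pools.

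Cells recognise foreign or misplaced RNA in the cytosol through the helicases RIG-I, encoded by *Ddx58*, and MDA5, encoded by *Ifih1*. Both signal through MAVS on the outer mitochondrial membrane to the kinases TBK1 and IKKε, which phosphorylate IRF3 so that it enters the nucleus and switches on type I interferon genes. Secreted interferon then acts through its receptor, the JAK kinases and the transcription factor complex ISGF3, which includes IRF9 and binds the interferon-stimulated response element (ISRE) in the promoters of interferon-induced genes. PKR, encoded by *Eif2ak2*, binds double-stranded RNA and blocks translation by phosphorylating eIF2α. The IFITM proteins sit in cell and endosomal membranes and hinder the fusion of enveloped viruses. Pluripotent cells are known to respond weakly to interferon while expressing some antiviral genes, IFITM genes among them, without it.

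The ISRE is the element through which type I interferon is known to induce its target genes, so the matches to its core are shown for the members whose promoters held one. The core was taken as GAAA, any 2 bases and GAAA again, and was searched on both strands, from 250 bases before to 50 bases after the transcription start of each RefSeq gene on GRCm38.p6. It was found in 6 of the 9 members and in 3.44% of 32851 promoters, and the members were listed partly as interferon-induced genes, so a higher share is built into the list. The 6 genes lie on the minus strand, and the windows are printed from 5′ to 3′ in the direction of the gene, with the letters of the matches in capitals:
Ifitm2, chr7:140955993-140956012: aacagGAAAAGGAAAttgct
Ifitm3, chr7:141010715-141010743: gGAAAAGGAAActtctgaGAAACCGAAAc
Isg15, chr4:156200871-156200900: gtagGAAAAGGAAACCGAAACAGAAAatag
Ddx58, chr4:40239809-40239828: ggcagTTTCGATTTCctatg
Ifih1, chr2:62646209-62646228: gaatcGAAACAGAAAccgat
Eif2ak2, chr17:78882540-78882559: gccggGAAAACGAAAcagaa

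*Isg15* held 3 overlapping matches, beginning at positions -78, -72 and -66, counted from 1 at the first transcribed base. *Ifitm3* held 2, at positions 3 and 20, and *Ifitm2* held 1 at -46. The match of *Ddx58*, at position 3, was on the reverse strand, and those of *Ifih1* and *Eif2ak2* began at 33 and 19. No match lay in the windows of *Ifitm1*, *Mavs* and *Irf3*. The palindromic core of the interferon-gamma-activated site, TTCNNNGAA, was present in *Ifitm3* and *Eif2ak2*, against 8.30% of all promoters, and in *Ifitm3*, where it began at position 14, it overlapped the ISRE match at position 20. A match describes the letters in the window and does not show that a factor was bound.

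The deposited values were taken as FPKM, a fragment density scaled to transcript length and to library size, so levels were compared between genes. Sequence shared with other genes, described below for the IFITM genes, adds uncertainty to that comparison. For genes with 1 annotated transcript, the most frequent product of FPKM and length among low values was taken as 1 fragment. By this estimate 1 FPKM in a transcript of 1 kilobase corresponded to between 17.7 and 36.4 fragments. Library oEV-ctrl 1 was the shallowest and oEV-EMT 1 the deepest. Differences were tested with limma on log2(FPKM + 1) over the 11924 genes that reached 1 FPKM in 3 or more libraries. The added 1 shrinks differences of genes with low values. The median difference of all tested genes was 0.17 toward the oEV-EMT group, and each difference below is to be read against that shift. An unannotated entry, new_gene48, took from 15.3% to 31.5% of the summed FPKM, with the highest share in oEV-ctrl 1. The 19 markers of the trophectoderm, epiblast and primitive endoderm, which make up the blastocyst, all passed the filter.

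Ranked by mean level, *Ifitm2* stood first with 107 FPKM and above 90.0% of tested genes. *Ifitm3* followed with 11 FPKM and *Irf3* with 10.2 FPKM, and these neighbours were not separated, since *Ifitm3* was the higher in 3 of 6 libraries. *Ifitm1* had 4.48 FPKM, *Mavs* 2.0 FPKM and *Ddx58* 1.78 FPKM. The ranges of these 3 genes over the libraries overlapped, although *Mavs* was above *Ddx58* in 5 of 6 libraries. *Eif2ak2* lay below all of them with 0.452 FPKM, and *Ifih1* and *Isg15* were at or next to 0. The blastocysts thus held transcripts of 1 of the 2 RIG-I-like sensors listed, of its adaptor and of IRF3. The transcript of ISG15 was not detected.

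**Figure D1:**
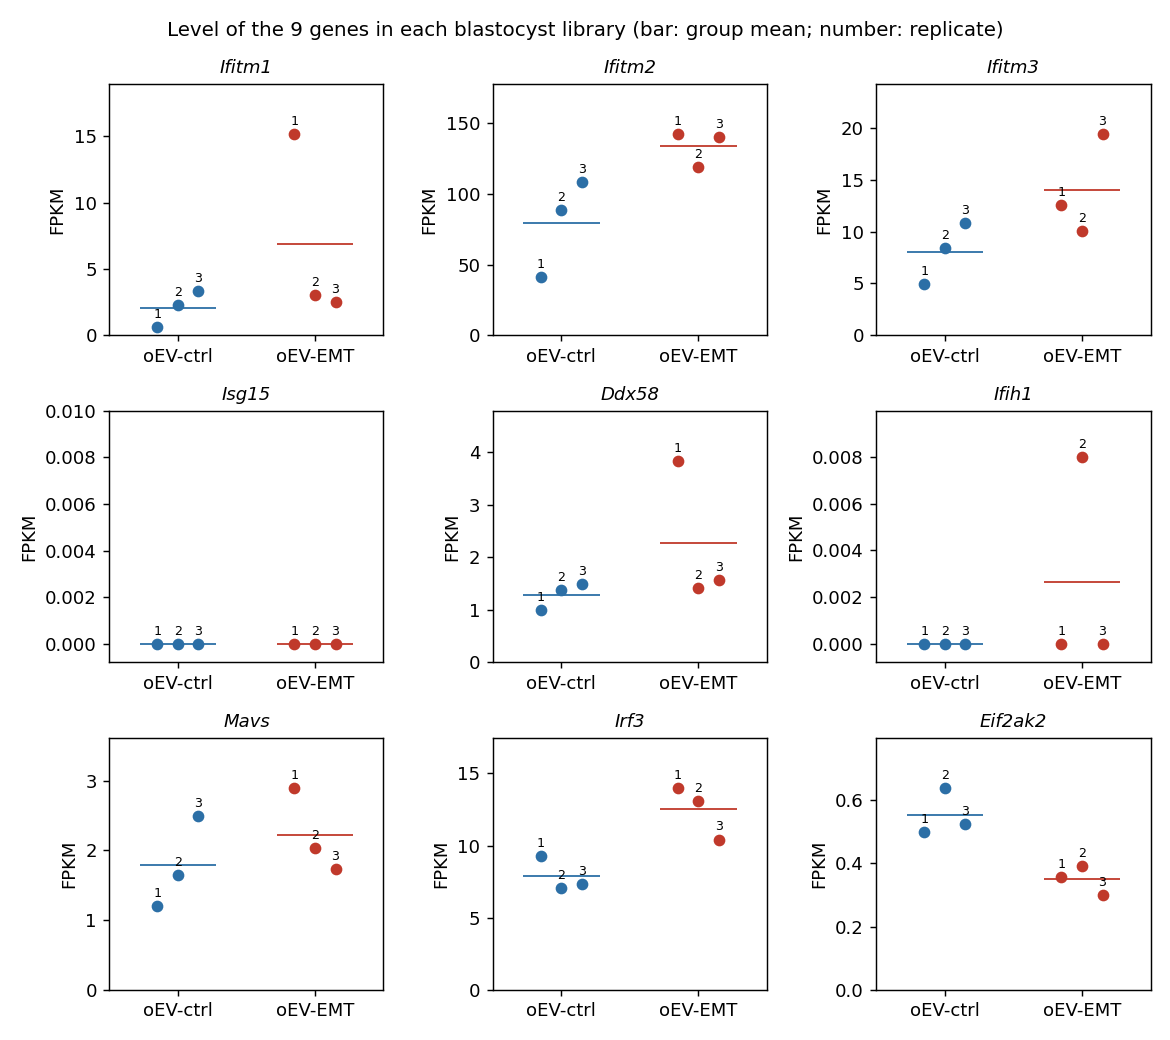
Level of each of the 9 genes in FPKM (vertical axes, each with its own range) in the 3 oEV-ctrl and 3 oEV-EMT libraries, with points numbered by replicate and bars at the group means. *Ifitm2* and *Irf3* were higher and *Eif2ak2* was lower in all oEV-EMT libraries, *Ifitm1* and *Ddx58* had 1 high library (oEV-EMT 1), and *Isg15* was at 0 throughout.

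No member passed both thresholds (an adjusted p no higher than 0.05 and a log2 fold change of 1 or more in either direction), and neither did any other gene (0 of 11924 tested, 0%). Over all genes 1831 had an unadjusted p of at most 0.05 by limma. Among the 6 tested members 3 (*Ifitm2*, *Ifitm3* and *Irf3*) had an unadjusted p of at most 0.05 and were higher in the oEV-EMT group, beside 12.8% of all tested genes. None was lower at that level, beside 2.55% of all tested genes. The 3 oEV-EMT values all lay above the 3 oEV-ctrl values for 2 of the 6, *Ifitm2* and *Irf3*, beside 18.1% of tested genes. The median log2 fold change of the 6 was 0.67, against 0.17 for all tested genes. It was 0.45 without oEV-ctrl 1 and 0.47 without oEV-EMT 1, and all 6 fitted differences were above 0 under each scaling tried.

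**Figure D2:**
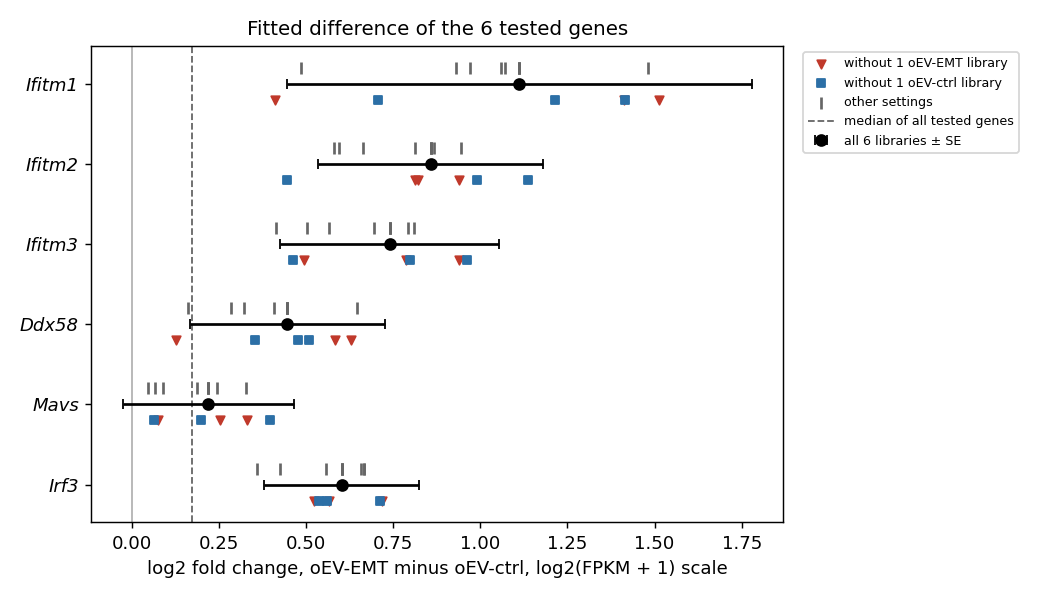
Fitted log2 fold change of the 6 tested genes (horizontal axis, oEV-EMT minus oEV-ctrl on the log2(FPKM + 1) scale), with black points and bars for all 6 libraries ± SE, symbols below for fits without 1 library and ticks above for the other settings. Every fit lay above 0, but *Ifitm2* fell from 0.86 to 0.45 without oEV-ctrl 1 and *Ddx58* from 0.45 to 0.13 without oEV-EMT 1, and the dashed line marks the median of all genes, 0.17.

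Markers of the lineages and of other cells were examined beside these results. The summed FPKM of the 6 epiblast markers was 136.9, 132.2 and 102.9 with oEV-EMT and 48.9, 75.3 and 99.5 with oEV-ctrl. The groups did not overlap, by a narrow margin between oEV-EMT 3 and oEV-ctrl 3, and the sum was not examined under other scalings. For 3 of the 6 markers (*Pou5f1*, *Nanog* and *Fgf4*) all oEV-EMT values were above, beside 18.1% of all tested genes, and the other 3 had log2 fold changes of -0.32 (*Sox2*), -0.02 (*Prdm14*) and 0.32 (*Tdgf1*). In pooled blastocysts, more cells of a lineage and more RNA per cell cannot be told apart, and the part of the lineages in the differences of the members was not tested. The summed FPKM of the 7 trophectoderm markers ranged from 3123 to 4734 with oEV-EMT and from 3075 to 4826 with oEV-ctrl. Most of this sum was *Krt18* and *Krt8*. For none of the 7 did the groups separate, and their log2 fold changes ran from -0.39 (*Eomes*) to 0.67 (*Elf5*). The summed FPKM of the 6 primitive endoderm markers ranged from 134.7 to 262.0 with oEV-EMT and from 180.2 to 236.2 with oEV-ctrl. Most of the primitive endoderm sum was *Dab2*, and for 2 of the 6 (*Gata4* and *Sox7*, with log2 fold changes of 0.82 and 0.52) all oEV-EMT values were above, while *Sox17*, whose groups overlapped, had 0.95. Of the 8 leukocyte markers, *Ptprc* and *Itgam* were at 0 in all libraries and only *Cd68*, a lysosomal protein gene, was tested. Their sum was between 6.92 and 14.3 FPKM with oEV-EMT and between 3.85 and 6.68 FPKM with oEV-ctrl, nearly all of it *Cd68*. None of the 6 cumulus cell markers passed the filter, with sums of at most 0.344 FPKM and 4 markers at 0, and of the 4 markers of oviduct epithelium only *Epcam* passed and *Foxj1* was at 0.

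*Ddx58* (ENSMUSG00000040296), on chromosome 4 of GRCm38 from 40203773 to 40239828, encodes RIG-I, which senses RNA with a 5′ triphosphate. It had 3.83, 1.41 and 1.57 FPKM with oEV-EMT (libraries 1, 2 and 3, an order kept throughout) and 1.00, 1.37 and 1.49 FPKM with oEV-ctrl. Library oEV-EMT 1 stood alone, and the other 5 values lay between 1.00 and 1.57 with the groups interleaved. The log2 fold change was 0.45 ± 0.28 (SE, adjusted p = 0.472), and 0.13 without oEV-EMT 1. The exact permutation test over the 6 libraries gave p = 0.2.

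*Ifih1* (ENSMUSG00000026896), on chromosome 2 from 62595798 to 62646255, encodes MDA5, which senses long double-stranded RNA. It was listed at 0 in 5 libraries and at 0.00797 FPKM in oEV-EMT 2, where the depth estimate makes that value 0.944 of a single fragment. A count of 0 allows up to 3 fragments, which for the longest transcript of this gene is between 0.0151 and 0.0309 FPKM depending on the library, for counting error only. The other RIG-I-like receptor, *Dhx58*, belongs to the further sensors described below. *Ddx58* and *Ifih1* therefore differed in level in every library of both groups, with *Ddx58* at 1.00 FPKM or more in all 6.

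*Mavs* (ENSMUSG00000037523), on chromosome 2 from 131234063 to 131248025, had 2.89, 2.03 and 1.73 FPKM with oEV-EMT and 1.21, 1.65 and 2.49 FPKM with oEV-ctrl. The groups overlapped, and both the lowest and the second highest value were oEV-ctrl libraries. The log2 fold change was 0.22 ± 0.24 (SE, adjusted p = 0.697) and was close to the median of all genes. It was 0.06 without oEV-ctrl 1, 0.07 without oEV-EMT 1, 0.33 without oEV-EMT 3 and 0.40 without oEV-ctrl 3.

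*Irf3* (ENSMUSG00000003184), on chromosome 7 from 44997648 to 45002848, had 14.0, 13.1 and 10.4 FPKM with oEV-EMT and 9.28, 7.05 and 7.31 FPKM with oEV-ctrl. Each oEV-EMT library was above each oEV-ctrl library, the closest pair being oEV-EMT 3 and oEV-ctrl 1. The group means were 12.5 ± 1.85 FPKM and 7.88 ± 1.22 FPKM (SD, n = 3 each), a ratio of 1.59. The log2 fold change was 0.60 ± 0.22 (SE, adjusted p = 0.248), and it stayed between 0.52 and 0.72 with each library left out. With upper quartile scaling it was 0.36 and the groups overlapped. The exact permutation test gave p = 0.1, the smallest that 3 libraries against 3 can give. IRF3 is activated by phosphorylation, which transcript levels do not show.

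The gene body of *Irf3* overlaps that of *Bcl2l12*, a gene on the opposite strand, over 1065 bases. The strand setting of the libraries and the counting is not stated in the sources used here. Reads from sequence that transcripts of both genes hold therefore cannot be assigned to 1 of the 2 genes. Of the 50-base stretches of the *Irf3* transcripts, 1.10% also occurred in transcripts of *Bcl2l12*. *Bcl2l12* had 15.3, 10.5 and 11 FPKM with oEV-EMT and 4.41, 5.45 and 6.93 FPKM with oEV-ctrl. Its groups did not overlap either, and its log2 fold change of 1.01 ± 0.24 (SE, adjusted p = 0.152) was larger than that of *Irf3*. The part of the overlap in the values of *Irf3* was not tested.

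**Figure D3:**
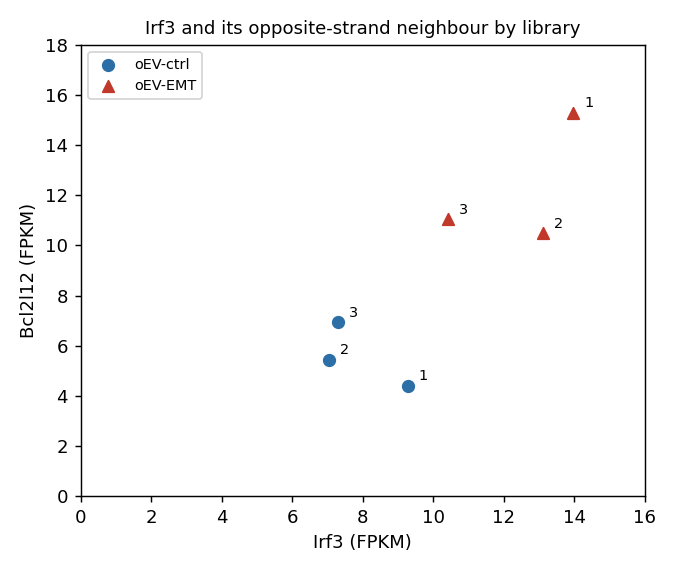
Level of *Irf3* (horizontal axis, FPKM) against that of *Bcl2l12*, its neighbour on the opposite strand (vertical axis, FPKM), with 1 point per library, numbered by replicate. The 3 oEV-EMT libraries lay above and to the right of the 3 oEV-ctrl libraries, and within the oEV-ctrl group the library highest in *Irf3*, oEV-ctrl 1 with 9.28 FPKM, was lowest in *Bcl2l12* with 4.41 FPKM.

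*Eif2ak2* (ENSMUSG00000024079), on chromosome 17 from 78852564 to 78882573, had 0.356, 0.391 and 0.301 FPKM with oEV-EMT and 0.50, 0.638 and 0.525 FPKM with oEV-ctrl. All values were below the filter of 1 FPKM, and they correspond to between 33.0 and 73.2 fragments per library. Every oEV-EMT value lay below every oEV-ctrl value, also under each of the other scalings tried, and the group means differed by a ratio of 0.630. The exact permutation test gave p = 0.1, the smallest possible. Among the 7162 genes with a value above 0 in every library that did not pass the filter, 4.26% lay lower without overlap in the oEV-EMT group. In the fit without a filter the log2 fold change was -0.20 ± 0.11 (SE, adjusted p = 0.709), a size that the added 1 FPKM compresses. *Gm26637*, on the opposite strand, overlaps its gene body and was not analysed here.

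*Isg15* (ENSMUSG00000035692), on chromosome 4 from 156199424 to 156200818, encodes a small protein that is attached to other proteins after interferon stimulation and is among the genes most strongly induced by it. It was listed at 0 in all 6 libraries. A count of 0 allows up to 3 fragments. For its transcript these amount to between 0.109 and 0.224 FPKM depending on the library, for counting error only. An exact 0 can be a failed estimate, and so 179 genes for subunits of complexes that nearly every cell uses were examined. Of these, 2 (*Psmb8* and *Psmb11*, subunits of tissue-restricted proteasomes) were at 0 in any library. *Psmb8* is also among the other interferon-induced genes described below. In the list of interferon receptors and JAK-STAT genes, *Irf2* and *Usp18* were also listed at 0 in all libraries. Whether the 0 of *Isg15*, *Irf2* or *Usp18* is a failed estimate was not tested. Of the 50-base stretches of *Isg15*, 3.96% occurred in 1 other gene, AC151275.1, which was also listed at 0.

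The IFITM genes lie close together on chromosome 7, *Ifitm2* (ENSMUSG00000060591) from 140954837 to 140955987, *Ifitm1* (ENSMUSG00000025491) from 140967221 to 140969825 and *Ifitm3* (ENSMUSG00000025492) from 141009586 to 141010770. *Ifitm2* had 142.6, 119.5 and 140.7 FPKM with oEV-EMT and 41.1, 88.4 and 108.5 FPKM with oEV-ctrl. The groups did not overlap, and oEV-ctrl 1 was far below the other 5 libraries. The means were 134.2 ± 12.8 FPKM and 79.3 ± 34.6 FPKM (SD, n = 3 each), a ratio of 1.69. The log2 fold change was 0.86 ± 0.32 (SE, adjusted p = 0.255) and was 0.45 without oEV-ctrl 1. The exact permutation test gave p = 0.1, the smallest possible, and the groups overlapped with upper quartile scaling.

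*Ifitm3* had 12.6, 10.0 and 19.4 FPKM with oEV-EMT and 4.91, 8.42 and 10.8 FPKM with oEV-ctrl. The groups overlapped through a single pair, oEV-EMT 2 below oEV-ctrl 3, and oEV-ctrl 1 was again the lowest. The log2 fold change was 0.74 ± 0.31 (SE, adjusted p = 0.30), and 0.46 without oEV-ctrl 1. *Ifitm1* had 15.2, 3.03 and 2.51 FPKM with oEV-EMT and 0.616, 2.26 and 3.31 FPKM with oEV-ctrl. Library oEV-EMT 1 was several times above the rest, oEV-ctrl 1 was the lowest, and the remaining 4 values were interleaved. Its log2 fold change of 1.11 was the largest of the members, with a standard error of 0.67 (adjusted p = 0.475), and it was 0.41 without oEV-EMT 1 and 0.71 without oEV-ctrl 1.

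Values of the IFITM genes carry some uncertainty from shared sequence, because 48.5% of the 50-base stretches of *Ifitm2* occur in at least 1 of 7 other genes. The largest part, 36.1%, was shared with *Gm45717*, an overlapping gene on the same strand that was listed at 0 in all libraries, and 3.30% was shared with *Ifitm3*. For *Ifitm3* the shared part was 10.0% and for *Ifitm1* 5.02%. Taken as 1 value, the sum of *Ifitm1*, *Ifitm2* and *Ifitm3* was 170.3, 132.6 and 162.6 FPKM with oEV-EMT and 46.6, 99.1 and 122.7 FPKM with oEV-ctrl. The groups did not overlap, and the difference on the log2 scale was 0.89. *Ifitm2* made up between 83.7% and 90.1% of this sum in every library. The sum was not examined under other scalings or with a library left out. *Ifitm2* alone overlapped between groups with upper quartile scaling and had a log2 fold change of 0.45 without oEV-ctrl 1. The other genes of the family were low, *Ifitm6* with 0.424, 1.92 and 0.748 FPKM with oEV-EMT and 0.602, 0.992 and 0.763 FPKM with oEV-ctrl, *Ifitm10* between 0.117 and 1.21 FPKM and *Ifitm7* between 0 and 0.172 FPKM. *Ifitm5*, which is known from bone, was at 0 in 4 libraries.

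The tested members varied together in part. Over the 6 libraries, the gene most like *Ifitm1* among the 58 other tested genes of the lists was *Ddx58* (Pearson r = 0.97 of log2(FPKM + 1)), which shared its high value in oEV-EMT 1, and *Mavs* was most like *Ifitm1* (r = 0.91). *Ifitm2* was most like *Irf9* (r = 0.97), *Ifitm3* most like *Eif2s1* (r = 0.95) and *Irf3* most like *Myd88* (r = 0.85). *Ifitm2* and *Ifitm3* had a correlation of 0.91. Each value rests on 6 points that share the group difference and the depth of the libraries, so these are descriptions.

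Beyond the members, 125 genes in 9 lists cover the rest of the pathway, and 53 of them could be tested. None had an adjusted p of at most 0.05 by limma, the lowest being 0.164. At an unadjusted p of at most 0.05, 8 were higher in the oEV-EMT group (15.1%, beside 12.8% of all tested genes) and 1 was lower. The groups did not overlap for 12 higher genes (22.6%, beside 18.1%) and for 1 lower gene (beside 4.34% of all tested genes). The median log2 fold change of the 53 genes was 0.21, near the 0.17 of all genes.

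**Figure D4:**
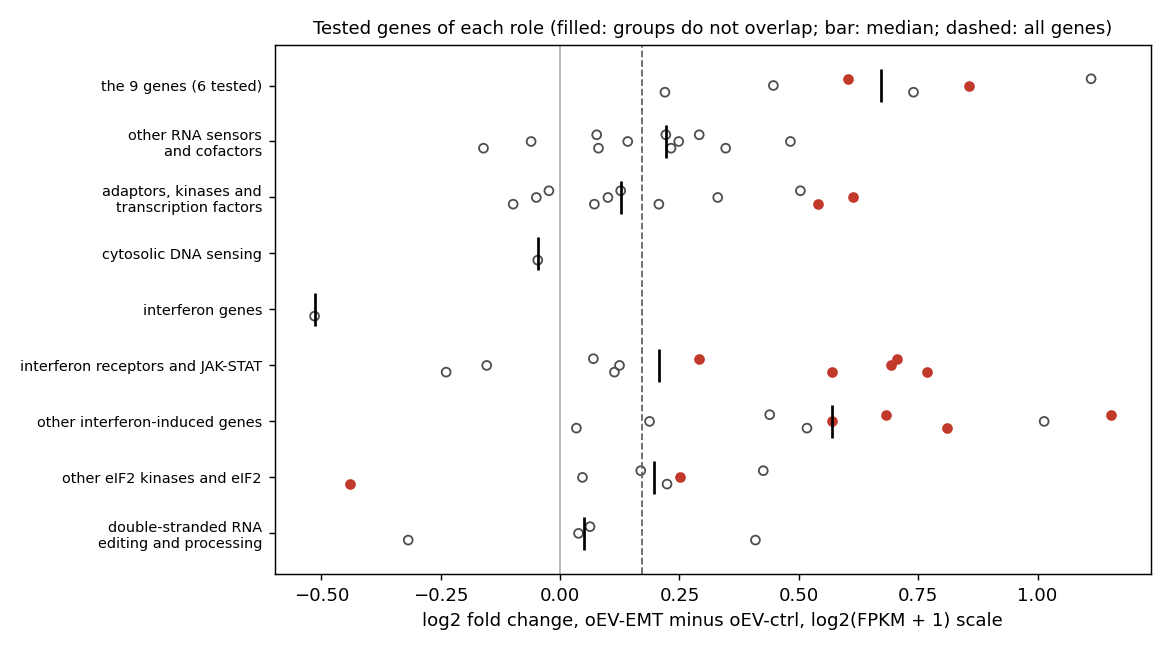
Fitted log2 fold change (horizontal axis, oEV-EMT minus oEV-ctrl on the log2(FPKM + 1) scale) of each tested gene, by role in the pathway (vertical axis), with filled points where the 3 libraries of each group do not overlap, a bar at the list's median and a dashed line at the median of all genes, 0.17. All 6 tested members (median 0.67) and 8 of the 9 other interferon-induced genes (median 0.57) lay to the right of the dashed line, and the medians of the other RNA sensors (0.22) and of the adaptors, kinases and transcription factors (0.13) lay near it.

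Among the 22 other RNA sensors and cofactors 11 were tested, with a median of 0.22, and for none of the 11 did the groups separate. The highest levels were those of *G3bp1*, a stress granule protein, between 24.9 and 54.3 FPKM, of *Oas1f* and of *Trim25*, the ubiquitin ligase that acts with RIG-I, between 5.26 and 19.9 FPKM. *Oas1f*, an oligoadenylate synthetase gene, had 15.7, 62.5 and 31.9 FPKM with oEV-EMT and 12.9, 35.9 and 56.7 FPKM with oEV-ctrl, a wide spread within both groups. *Tlr7* and *Tlr8*, the endosomal sensors of single-stranded RNA, were listed at 0 in all libraries, and *Dhx58* did not pass the filter. Of the 5 genes of cytosolic DNA sensing only *Trex1*, a DNA exonuclease, was tested, with 3.63, 4.27 and 2.84 FPKM with oEV-EMT and 2.77, 3.65 and 4.90 FPKM with oEV-ctrl. *Aim2* and *Ifi204*, which sense DNA, reached no more than 0.711 FPKM and 0.125 FPKM.

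Of the 19 other adaptors, kinases and transcription factors 11 were tested, with a median of 0.13. *Tbk1*, the kinase that phosphorylates IRF3, ranged from 5.75 to 8.20 FPKM, *Azi2*, an adaptor of TBK1, from 7.46 to 11.9 FPKM and *Chuk*, which encodes IKKα, from 9.98 to 14.2 FPKM. *Myd88*, the adaptor of most Toll-like receptors, had 6.21, 5.35 and 3.20 FPKM with oEV-EMT and 2.51, 3.02 and 2.81 FPKM with oEV-ctrl. Its groups did not overlap, by a narrow margin between oEV-EMT 3 and oEV-ctrl 2, and its log2 fold change was 0.61 (adjusted p = 0.287). With median-of-ratios or upper quartile scaling, no tested gene of this list, *Myd88* included, was higher in the oEV-EMT group without overlap.

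Most interferon genes were at or near 0. Of 12 listed, 7 were at 0 in all libraries and 11 stayed below 0.5 FPKM. *Ifnk*, an interferon known from skin, was the exception with 0.642, 1.94 and 2.55 FPKM with oEV-EMT and 2.21, 3.66 and 2.34 FPKM with oEV-ctrl, and the groups overlapped. *Ifnab* reached 0.133 FPKM in 1 library and *Ifng* 0.436 FPKM in 1 library.

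Most of the receptors and JAK-STAT genes were present, with 10 of 16 tested and *Irf2* and *Usp18* at 0 in all libraries. *Ifnar2*, a chain of the type I interferon receptor, had 14.0, 14.6 and 21.2 FPKM with oEV-EMT and 18, 16.2 and 11.6 FPKM with oEV-ctrl, and *Jak1* lay between 9.50 and 16.3 FPKM. Both overlapped between groups. The groups did not overlap for 5 of the 10, all higher in the oEV-EMT group (beside 18.1% of all tested genes). With median-of-ratios scaling 4 were higher and 2 lower, and with upper quartile scaling 4 were higher and 1 lower. Of the 5, 4 had an unadjusted p of at most 0.05 (beside 12.8% of all tested genes). *Ifngr1* and *Ifngr2*, the chains of the interferon gamma receptor, were both higher in every oEV-EMT library. *Ifngr1* had 3.07, 3.33 and 5.18 FPKM against 1.88, 2.95 and 1.94 FPKM, with a log2 fold change of 0.57 (adjusted p = 0.312). *Ifngr2* had 6.42, 4.20 and 4.98 FPKM against 2.74, 2.61 and 3.04 FPKM, with a log2 fold change of 0.69 (adjusted p = 0.207). *Il10rb*, which is shared by the receptors of interferon lambda and interleukin 10, had 6.11, 6.63 and 6.82 FPKM against 2.61, 3.71 and 4.78 FPKM, and a log2 fold change of 0.70 (adjusted p = 0.22). *Irf9*, the DNA-binding part of ISGF3, had 3.09, 3.38 and 3.21 FPKM against 0.387, 2.31 and 2.33 FPKM, and its log2 fold change of 0.77 (adjusted p = 0.302) was 0.35 without oEV-ctrl 1. The median of the list, 0.21, was near that of all genes.

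Most of the other interferon-induced genes were near 0, and a smaller part was clearly expressed. Of 35 listed, 26 did not pass the filter, and none of the 26 exceeded the 0.739 FPKM of *Parp9*. Those at 0 in all libraries numbered 7 and were *Ifit1*, *Ifit1bl1*, *Ifit3*, *Ifit3b*, *Iigp1*, *Irgm1* and *Ifi44*. The 9 that were tested had a median log2 fold change of 0.57, and 8 of the 9 lay above the median of all genes. The median was 0.35 without oEV-EMT 1 and 0.42 without oEV-ctrl 1. The groups did not overlap for 4 of the 9, all higher in the oEV-EMT group (beside 18.1% of all tested genes), and for 2 of the 9 with median-of-ratios scaling, upper quartile scaling or a total without new_gene48. At an unadjusted p of at most 0.05, 3 of the 9 were higher (beside 12.8%) and none was lower.

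*B2m*, the light chain of MHC class I, had 265.0, 320.3 and 405.7 FPKM with oEV-EMT and 140.7, 262.7 and 223.7 FPKM with oEV-ctrl. The groups were separated by a narrow margin between oEV-EMT 1 and oEV-ctrl 2, and the log2 fold change was 0.68 (adjusted p = 0.263), or 0.42 without oEV-ctrl 1. *Psmb9*, an immunoproteasome subunit, had 11.6, 21.3 and 12.8 FPKM against 7.40, 3.98 and 7.41 FPKM, with a log2 fold change of 1.15 ± 0.30 (SE, adjusted p = 0.164). *Ifi35* had 4.61, 5.81 and 6.09 FPKM against 3.15, 2.41 and 2.56 FPKM, with a log2 fold change of 0.81 ± 0.22 (SE, adjusted p = 0.164). Only with library quality weights, added after the data were seen, did these 2 genes reach an adjusted p of at most 0.05, at 0.0399 for *Psmb9* and 0.0462 for *Ifi35*. *Psmb8*, a proteasome subunit gene of the same list, did not pass the filter. It was at 0 in every oEV-EMT library and had 0.149, 0 and 0.0171 FPKM with oEV-ctrl.

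*Ube2l6*, the conjugating enzyme for ISG15, had 24.5, 12.8 and 18 FPKM against 10.2, 12.4 and 12.6 FPKM, with a log2 fold change of 0.57 (adjusted p = 0.328) that was 0.35 without oEV-EMT 1. It was thus transcribed in libraries in which *Isg15* was not detected. *Bst2*, the surface protein tetherin, had 58.1, 23.7 and 10.4 FPKM against 11.6, 10.5 and 12.9 FPKM. Its level varied widely within the oEV-EMT group, highest in oEV-EMT 1 as for *Ifitm1* and *Ddx58*, and its log2 fold change of 1.01 (adjusted p = 0.414) was 0.41 without that library and 1.60 without oEV-EMT 3. Without *B2m* the summed FPKM of the list was 115.9, 80.4 and 60.6 with oEV-EMT and 44.8, 41.4 and 48.6 with oEV-ctrl.

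**Figure D5:**
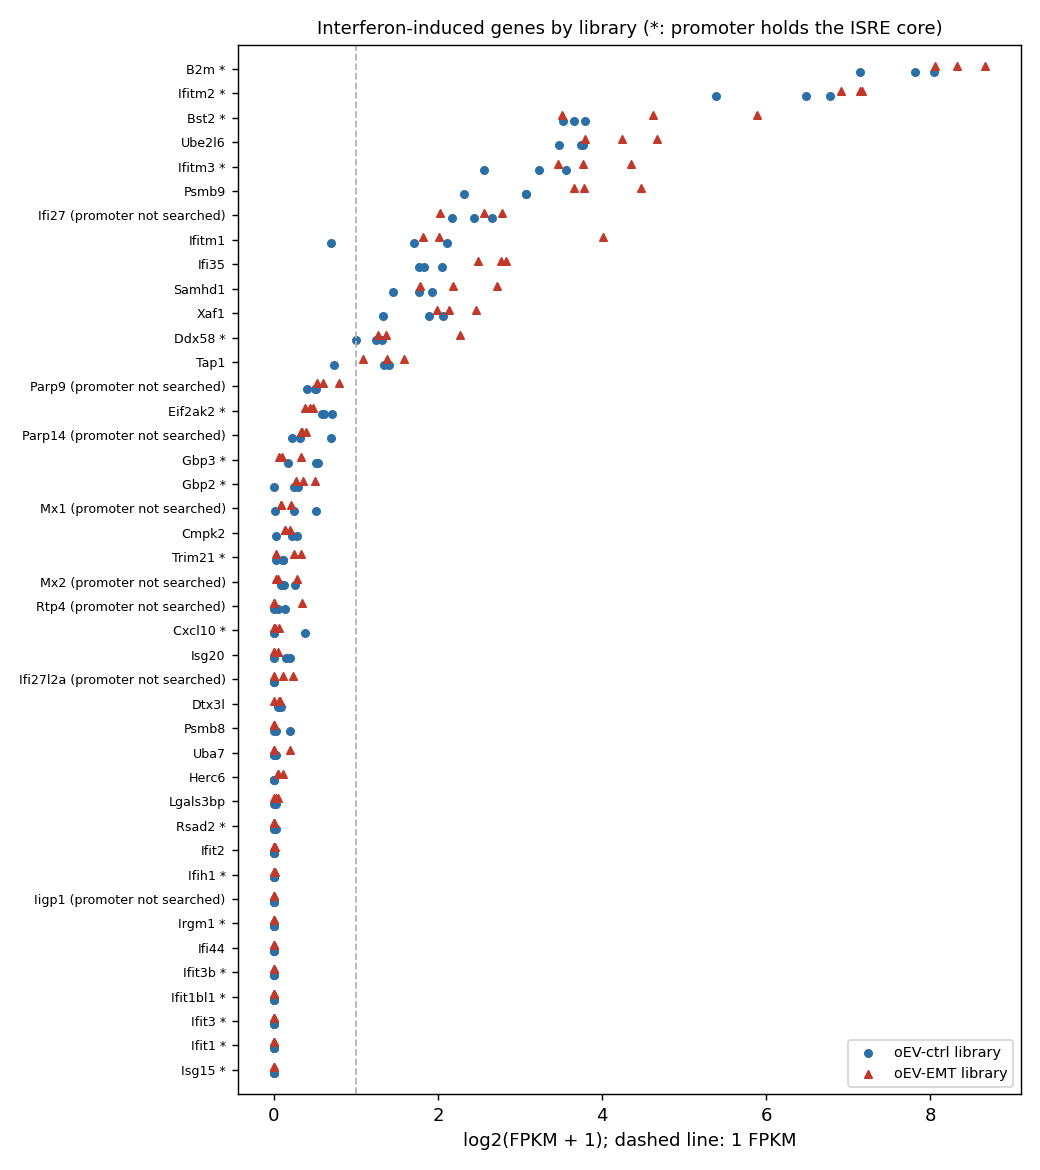
Level of 42 interferon-induced genes, 7 members among them (vertical axis, sorted by mean), as log2(FPKM + 1) (horizontal axis, dashed line at 1 FPKM) in each library, with an asterisk where the promoter window held the ISRE core. *B2m* and *Ifitm2* led, 13 genes lay mostly to the right of the dashed line, and *Isg15*, *Ifih1* and the *Ifit* genes were at or next to 0 in both groups.

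The ISRE core was present in genes with and without signal. Among the 27 other interferon-induced genes with a promoter in the table, 2 of the 12 that held the core (*Bst2* and *B2m*) were tested and 5 of the 12 were at 0 in all libraries. Of the 15 without it, 6 were tested and 1 was at 0. Among the members the core was present in *Ifitm2*, the highest member, and in *Isg15* and *Ifih1*, the lowest.

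Genes of eIF2, the target of PKR, were abundant. The 6 other eIF2 kinases and eIF2 subunits were all tested, with a median of 0.20. *Eif2s1*, which encodes the eIF2α that PKR phosphorylates, had 178.0, 186.1 and 212.1 FPKM with oEV-EMT and 154.1, 174.3 and 183.9 FPKM with oEV-ctrl. *Eif2s3x* had 38.0, 40.2 and 44.9 FPKM against 32.3, 34.2 and 36.4 FPKM, higher in every oEV-EMT library. Its log2 fold change was 0.25 (adjusted p = 0.56 by limma). With median-of-ratios or upper quartile scaling, no gene of this list was higher in the oEV-EMT group without overlap. *Eif2s2*, which encodes eIF2β, had 983.1, 1075 and 1340 FPKM against 1635, 1488 and 1453 FPKM, lower in every oEV-EMT library, with a log2 fold change of -0.44 ± 0.19 (SE, adjusted p = 0.296). Of 6 genes that edit or process double-stranded RNA 4 were tested, with a median of 0.05, and the groups overlapped for each. *Dicer1* ranged from 1.04 to 2.47 FPKM, *Tarbp2*, its partner, from 5.66 to 15.8 FPKM and *Ago2* from 2.07 to 3.59 FPKM.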

How the data were processed

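RNA-seq of 6 blastocyst libraries was analysed. The authors selected polyadenylated RNA, aligned the reads, assembled transcripts with StringTie and deposited 1 value per gene and library. The submitters' processing notes name mm10; the aligner and the strand setting are not given in the sources used here. The methods call the values TPM, but they sum to between 1293170 and 1551570 per library, and the deposited values were taken as FPKM.

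The members and the lists were chosen with earlier results of these data known. The design had noted the count model of the methods, and since no counts are held in the table, limma 3.58.1 (R 4.3.3, trended and robust variance, Benjamini-Hochberg adjustment) was run on log2(FPKM + 1) of 11924 genes with at least 1 FPKM in at least 3 libraries. Exact two-sided permutation tests of single genes (scipy 1.17.1) cannot give a p below 0.1 here. Named were the 9 members, the 3 highest genes of each list, list genes with an unadjusted p of at most 0.05 and no overlap, and the list gene most correlated with each member; *Bst2* and *Ube2l6* are among the highest, and *Bcl2l12* was added after its values were seen. Gene positions and shared 50-base stretches came from GENCODE M21 on GRCm38, and promoters from RefSeq on GRCm38.p6. Depth was derived from genes with 1 transcript longer than 1500 bases, and limits from it cover counting error only.

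Alternatives covered scaling, filter, pseudocount, variance model, the replicate number as a block and the omission of single libraries. Library quality weights and a total without new_gene48 were added after the data were seen.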

Additional observations from a re-analysis of the deposited data

How the results depend on the processing

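The call of 0 members held under all 16 alternatives, and all 96 alternative fits of the 6 tested members gave a log2 fold change above 0, with 0.083 as the lowest adjusted p (*Irf3*, library quality weights). Relative to the median of all genes, *Ddx58* and *Mavs* fell as low as -0.01 and -0.09. The median of the members ranged from 0.43 with upper quartile scaling to 0.78 without oEV-EMT 2. The count of members without overlap, 3 of 9, was 1 with upper quartile scaling (*Eif2ak2*), and between 3 and 7 with each library left out, 7 without oEV-ctrl 3 and 5 without oEV-EMT 2. Fewer libraries overlap less often for any gene, and the share of tested genes without overlap in either direction was 22.4% with all libraries, 33.9% without oEV-ctrl 3 and 29.8% without oEV-EMT 2. Over all genes, 0 were called, against 104 with library quality weights, 21 with a replicate block and between 0 and 16 with each library left out (16 without oEV-ctrl 3, 4 without oEV-EMT 1, 1 without oEV-EMT 3); the cause was not tested. Libraries with the same number had correlations of their deviations of 0.12, -0.04 and 0.04, so the numbers were not taken to pair them. Depth limits *Isg15* and *Ifih1*, for which a count of 0 allows up to 3 fragments in a library.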

Other observations

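Library oEV-EMT 1 was the highest of the 6 for *Ifitm1* (15.2 FPKM), *Ddx58* (3.83 FPKM), *Mavs* (2.89 FPKM), *Trim25* (19.9 FPKM) and *Bst2* (58.1 FPKM), and it had the lowest quality weight of the 6 libraries, 0.352. Library oEV-ctrl 1 was the lowest for *Ifitm1* (0.616 FPKM), *Ifitm2* (41.1 FPKM), *Ifitm3* (4.91 FPKM), *Ddx58* (1.00 FPKM), *Mavs* (1.21 FPKM) and *Irf9* (0.387 FPKM), and it had the highest share of new_gene48, 31.5%. For *Irf3* it was the highest oEV-ctrl library instead, with 9.28 FPKM. These genes were picked for comparison after their values were seen.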
